A study of Homo sapiens with 6 samples.

Results

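The 10 genes described here encode enzymes that trim mannose from asparagine-linked (N-linked) glycans or add the N-acetylglucosamine (GlcNAc) residues on which their branches are built. They are the alpha-mannosidases MAN1A1, MAN1A2, MAN1B1, MAN1C1, MAN2A1 and MAN2A2 and the GlcNAc transferases MGAT1, MGAT2, MGAT4A and MGAT5. All 10 were found by numeric gene ID among the 30727 genes of the files, and all 10 passed the filter on low counts. MAN1A1 was chosen for its large rise in these same libraries, so its difference is given as a description without a test. The other 9 were named by their place in the pathway, with earlier results of these data known.

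The RNA was polyadenylated RNA of PANC-1, a human cell line grown from a pancreatic ductal carcinoma, in 3 libraries of cells given siRNA against SUV420H2 and 3 control libraries. SUV420H2, now KMT5C, is a methyltransferase for lysine 20 of histone H4. The labels leave out what the controls received, how long the siRNA acted and whether each library had its own culture. The p-values therefore cover only the spread between libraries, which may be technical. The only comparison is knockdown against control.

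Most proteins that pass through the secretory pathway receive a mannose-rich glycan in the endoplasmic reticulum (ER), which is then pruned and rebuilt on the way to the cell surface. Class I alpha-mannosidases of the ER and Golgi trim it to the form that MGAT1 accepts, MGAT1 adds the first GlcNAc, class II mannosidases remove further mannose, and MGAT2, the MGAT4 enzymes and MGAT5 then start the branches of complex glycans. Branched glycans at the surface are bound by galectins, and MGAT5-dependent branching has been studied in carcinoma spread. RNA levels do not measure enzyme activity or the glycans themselves.

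Knockdown libraries held 27007534 to 38022772 counted reads, and controls held 20863594 to 25931995. KMT5C averaged 6.0 ± 0.130 CPM (reads scaled to library size by TMM) in the knockdown and 9.81 ± 2.72 CPM in the controls (SD, n = 3 each). Control replicate 3 stood apart, with a chi-square over degrees of freedom of 11.3 and 13.6 when set against control replicates 1 and 2. Knockdown libraries differed among themselves by 1.98 to 2.26 on that measure, and control replicates 1 and 2 by 1.55. All 5 markers of duct carcinoma epithelium were detected, and their summed level was 5663 to 5897 CPM in the knockdown and 2427 to 2969 CPM in the controls, with KRT7, KRT8, KRT18 and EPCAM higher and KRT19 lower. The tested markers of neurons summed to 128 to 136 CPM in the knockdown and 233 to 278 CPM in the controls, mostly TUBB3. SYP, MAP2, TUBB3 and SYT1 fell and SNAP25 rose. Tested markers of fibroblasts and endothelium (PDGFRB alone) were at 7.29 to 7.66 CPM in the knockdown and 1.84 to 2.04 CPM in the controls. Those of microglia and leukocytes, nearly all CD68, were at 126 to 133 CPM in the knockdown and 92.7 to 103 CPM in the controls. GJA1, the only astrocyte marker tested, was at 2.06 to 2.50 CPM in the knockdown and 2.20 to 2.66 CPM in the controls. AQP4, another astrocyte gene, had no read in any library, and GFAP had 13 reads in all knockdown libraries and 0 in all controls. The leukocyte gene PTPRC had 2 reads in all knockdown libraries and 1 in all controls, CSF1R 39 and 11, and ITGAM 181 and 135. The part of these shifts in the results below was not tested. In bulk RNA, fewer cells with a transcript and less of it per cell cannot be told apart.

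MAN1A1, a Golgi class I mannosidase (gene ID 4121; GRCh38 chromosome 6, 119177205 to 119350605), was the member whose level differed most. It had 1680, 1210 and 1358 reads in the knockdown libraries, against 73, 64 and 83 reads in the controls. Per library size this was 43.9, 44.5 and 45.2 CPM in the knockdown, against 2.92, 3.08 and 3.25 CPM in the controls. All 3 knockdown libraries lay far above all 3 controls, and the spread within each group was small. The log2 fold change was 3.85 (SE 0.0751), which is 14.4-fold and the value in place 54 from the highest among 15190 genes tested. This value chose the gene and supports nothing further.

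The region before the MAN1A1 start is shown because this gene and its relative MAN1C1 had the highest fold changes of the 10. Each is the 250 bases before the start site in RefSeq's table for GRCh38.p14, read 5′ to 3′ on the gene's strand, and capitals mark the GC box GGGCGG or its complement CCGCCC. The MAN1A1 window is chr6:119349762-119350011 on the minus strand, and the MAN1C1 window is chr1:25616541-25616790 on the plus strand.
MAN1A1: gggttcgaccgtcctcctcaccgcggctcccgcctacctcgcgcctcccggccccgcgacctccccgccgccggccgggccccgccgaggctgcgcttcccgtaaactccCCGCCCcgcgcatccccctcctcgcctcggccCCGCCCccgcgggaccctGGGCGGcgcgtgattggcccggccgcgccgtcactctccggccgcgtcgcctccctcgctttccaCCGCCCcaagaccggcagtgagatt
MAN1C1: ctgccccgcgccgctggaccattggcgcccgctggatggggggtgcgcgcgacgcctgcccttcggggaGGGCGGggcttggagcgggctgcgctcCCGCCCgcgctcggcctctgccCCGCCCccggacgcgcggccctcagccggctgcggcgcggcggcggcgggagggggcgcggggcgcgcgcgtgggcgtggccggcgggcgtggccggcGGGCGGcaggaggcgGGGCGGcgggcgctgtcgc
The MAN1A1 window held 4 GC boxes and 40 CG dinucleotides, more CG than 97.8% of the 35116 windows of this length, whose median was 11. The MAN1C1 window held 5 GC boxes and 47 CG dinucleotides. Among the windows of members that differed less, MAN2A1 held 5 GC boxes and 31 CG, MAN1B1 3 and 33, and MAN2A2, which fell, 1 and 32. MGAT2, which also fell, held 1 and 24, MGAT5 held 1 and 18, and MGAT1 held 0 and 4. GC boxes were found in 42.6% of all windows. Neither the MAN1A1 nor the MAN1C1 window held the E-box CAGGTG or its complement CACCTG, which 17.5% of windows held. The windows of MAN2A1, MAN2A2, MGAT1 and MGAT5 also lacked it, while MAN1B1 held 1 and MGAT2 held 2. The MAN1A1 and MAN1C1 windows each held 1 CCAAT or ATTGG, found in 32.0% of windows. So did those of MGAT2 and MGAT5, while those of MAN1B1, MAN2A1, MAN2A2 and MGAT1 held none. A match is only a match of letters. RefSeq places the outer ends of the MAN1A1 and MAN2A2 genes upstream of their windows, and GENCODE 29 starts MAN1C1 further downstream. Other start sites may therefore be in use.

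**Figure D1:**
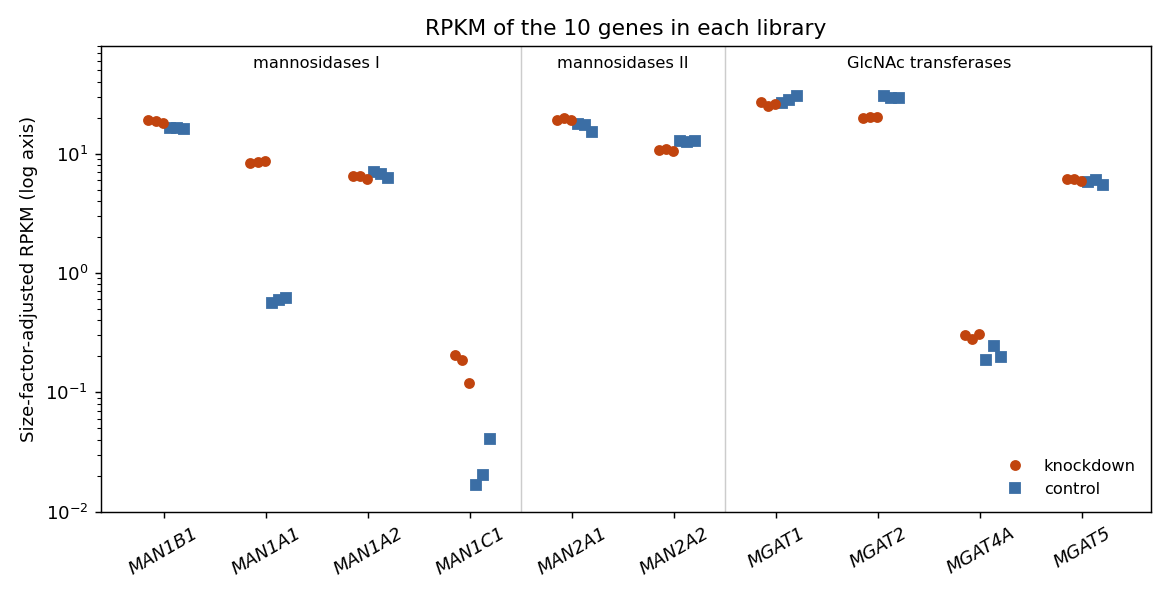
Size-factor-adjusted RPKM (log axis) of the 10 genes in each library, circles for the 3 knockdown and squares for the 3 control libraries, grouped by role. MAN1A1 stands at 8.41 to 8.68 RPKM in the knockdown and 0.555 to 0.611 RPKM in the controls, while the other genes above 5 RPKM differ far less between the groups.

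Levels of different genes were compared by the authors' RPKM, reads per length and library size. In the knockdown the order of mean levels was MGAT1 (26.0 ± 0.941 RPKM), MGAT2 (20.3 ± 0.172), MAN2A1 (19.4 ± 0.504), MAN1B1 (18.7 ± 0.612), MAN2A2 (10.7 ± 0.193), MAN1A1 (8.55 ± 0.134), MAN1A2 (6.39 ± 0.194), MGAT5 (6.04 ± 0.120), MGAT4A (0.297 ± 0.0158) and MAN1C1 (0.170 ± 0.0445; SD, n = 3 libraries). Only MAN2A1 and MAN1B1 overlapped with their neighbour in that order. In the controls MGAT2 (29.7 ± 0.855 RPKM) and MGAT1 (28.2 ± 1.94) overlapped at the top, followed by MAN2A1 (16.8 ± 1.40) and MAN1B1 (16.2 ± 0.0885), whose ranges also overlapped. MAN1A1 was in place 8 there, at 0.585 ± 0.0279 RPKM, below MAN1A2 (6.68 ± 0.432) and MGAT5 (5.75 ± 0.275).

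Of the 9 genes other than MAN1A1, 4 rose (MAN1B1, MAN1C1, MAN2A1 and MGAT4A), 2 fell (MAN2A2 and MGAT2) and 3 did not pass (MAN1A2, MGAT1 and MGAT5) in edgeR's quasi-likelihood test at an adjusted p of 0.05. Across all 15190 genes tested, 67.3% were called, 33.1% higher and 34.2% lower. MAN1C1, with 78 reads in all knockdown libraries and 9 in all controls, passed the low-count filter through its knockdown libraries alone. Its place among the tested genes thus rested on the group where it was high, so its call is only a description. Of the other 8, 3 rose, 2 fell and 3 did not pass, with log2 fold changes from −0.57 to 0.50. None of the 8 reached 2-fold, a size at which 14.0% of all genes tested were called.

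**Figure D2:**
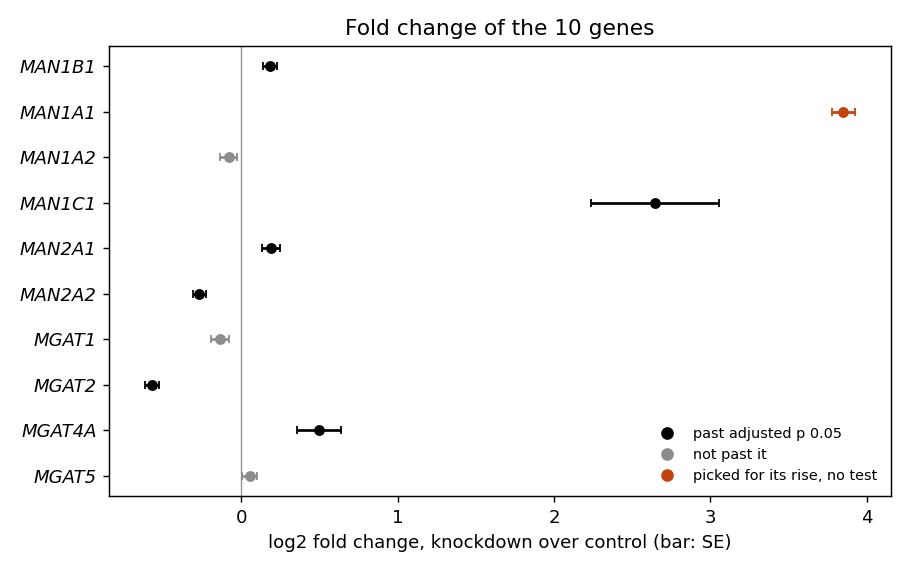
Log2 fold change of each gene, knockdown over control, with bars for the SE from edgeR and 3 libraries in each group. MAN1A1 lies at 3.85 and MAN1C1, with a wide SE of 0.409, at 2.65, and the other 8 lie between −0.57 and 0.50.

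Of the class I mannosidases other than MAN1A1, MAN1B1 and MAN1C1 rose and MAN1A2 did not pass. MAN1A2, a close relative of MAN1A1 in the Golgi (gene ID 10905; chromosome 1, 117367449 to 117528872), had 57.0, 57.6 and 54.3 CPM in the knockdown, against 62.4, 60.3 and 55.8 CPM in the controls. The groups overlapped, and the log2 fold change of −0.08 (SE 0.0552) did not pass (edgeR adjusted p = 0.225). Without control replicate 3 it was −0.13 and passed (edgeR adjusted p = 0.00791; range over the alternatives 0.00791 to 0.647). MAN1C1, another Golgi enzyme of this class (gene ID 57134; chromosome 1, 25616791 to 25784450), was barely detected, with 37, 24 and 17 reads in the knockdown libraries against 2, 2 and 5 reads in the controls. Every knockdown library lay above every control, with a log2 fold change of 2.65 (SE 0.409). MAN1C1 passed the low-count filter through its knockdown libraries alone, so this gap is a description and supports nothing further. The depth-corrected ratio of summed reads was 6.58, with an exact 95% counting interval of 3.29 to 14.9 that covers counting error only.

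MAN1B1 acts earlier, in the ER and early secretory pathway, where trimming of mannose also marks misfolded glycoproteins for degradation (gene ID 11253; chromosome 9, 137086985 to 137109183). It had 72.2, 71.3 and 67.7 CPM in the knockdown, against 61.9, 61.7 and 62.1 CPM in the controls. The groups did not overlap, as for 71.3% of all genes tested, and the rise was 1.14-fold (log2 fold change 0.19, SE 0.0463, edgeR adjusted p = 0.00423).

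Within the Golgi class I genes the make-up of the transcripts shifted with MAN1A1. The summed RPKM of MAN1A1, MAN1A2 and MAN1C1 was 15.1, 15.3 and 15.0 in the knockdown libraries, against 7.61, 7.40 and 6.85 in the controls. MAN1A1 made up 56.6% ± 1.22 of that sum in the knockdown and 8.05% ± 0.817 in the controls (SD, n = 3 each). MAN1A2 made up 42.3% ± 0.935 in the knockdown and 91.6% ± 1.01 in the controls. Without MAN1A1 the sums were 6.56 ± 0.236 RPKM in the knockdown and 6.70 ± 0.419 RPKM in the controls. The shares rest on the gene chosen for its rise and are given without a test.

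**Figure D3:**
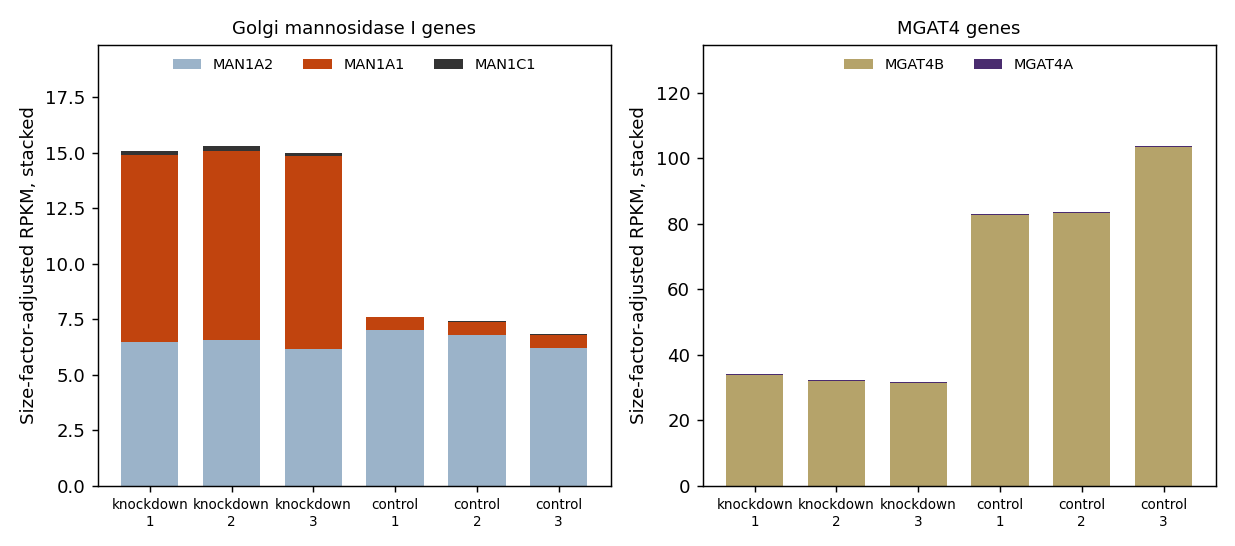
Stacked size-factor-adjusted RPKM in each of the 6 libraries, knockdown left of control, for the Golgi class I mannosidase genes (left panel) and the MGAT4 genes (right panel). The MAN1A2 part is of similar height in all libraries while the MAN1A1 part is large in the 3 knockdown libraries, and the MGAT4B bar is lower in every knockdown library than in any control.

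The class II mannosidases, which act after MGAT1, moved in opposite directions by small amounts. MAN2A1 (gene ID 4124; chromosome 5, 109689927 to 109869625) had 144, 150 and 142 CPM in the knockdown, against 134, 131 and 116 CPM in the controls. It rose 1.14-fold (log2 fold change 0.19, SE 0.0562, edgeR adjusted p = 0.0106), a call lost without knockdown replicate 2 (edgeR adjusted p = 0.0529; range 0.00133 to 0.0529). Without control replicate 3, the lowest control, its log2 fold change was 0.13. MAN2A2 (gene ID 4122; chromosome 15, 90902382 to 90922585) had 75.9, 76.4 and 73.7 CPM in the knockdown, against 91.2, 89.4 and 91.3 CPM in the controls. It fell to 0.831 of the control level (log2 fold change −0.27, SE 0.0425, edgeR adjusted p = 0.000201), with no overlap between the groups.

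Set against each other, the log2 ratio of MAN2A1 to MAN2A2 RPKM was 0.83, 0.88 and 0.85 in the knockdown, against 0.46, 0.46 and 0.25 in the controls. All 3 knockdown ratios were above the controls, a mean difference of 0.46, and an exact two-sided permutation test gave p = 0.1, the smallest that 3 against 3 allows. The summed RPKM of the pair was 30.1 ± 0.669 in the knockdown and 29.5 ± 1.44 in the controls (SD, n = 3 each).

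MGAT1 and MGAT2 begin the antennae, and of these MGAT2 fell and MGAT1 did not pass. MGAT1, which commits a glycan to the hybrid or complex type (gene ID 4245; chromosome 5, 180784780 to 180815616), had 124, 115 and 118 CPM in the knockdown, against 122, 129 and 142 CPM in the controls. The groups overlapped, and the log2 fold change of −0.14 (SE 0.0577) did not pass (edgeR adjusted p = 0.0551). It passed without control replicate 1 (0.0249) and without the low-count filter (0.0228; range over the alternatives 0.0228 to 0.184). Without control replicate 3, its highest control, the log2 fold change was −0.08 and did not pass (edgeR adjusted p = 0.0622). MGAT2, which adds GlcNAc to the other arm of the core (gene ID 4247; chromosome 14, 49620799 to 49623481), had 55.6, 56.5 and 56.0 CPM in the knockdown, against 85.7, 81.6 and 82.5 CPM in the controls. It fell to 0.673 of the control level (log2 fold change −0.57, SE 0.0446, edgeR adjusted p = 7.10e-07), the clearest fall among the 10. GENCODE 29 places an antisense gene across 2666 bases of MGAT2, and no source says that strand was used in counting, so reads of the pair cannot be told apart.

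The MGAT4 and MGAT5 enzymes add the further branches. MGAT4A (gene ID 11320; chromosome 2, 98619106 to 98731132) was scarce, with 100, 66 and 81 reads in the knockdown libraries against 41, 44 and 45 reads in the controls. Per library size it had 2.61, 2.43 and 2.70 CPM in the knockdown, against 1.64, 2.12 and 1.76 CPM in the controls. It rose 1.41-fold (log2 fold change 0.50, SE 0.142, edgeR adjusted p = 0.00894). In DESeq2 the log2 fold change was again 0.50 but the call was lost (adjusted p = 0.0641). With all libraries thinned to the depth of the smallest it was 0.33, and did not pass (edgeR adjusted p = 0.125; range over the alternatives 0.00535 to 0.125). MGAT5, whose branch favours chains of repeated galactose and GlcNAc (gene ID 4249; chromosome 2, 134119935 to 134454621), had 57.6, 57.2 and 55.4 CPM in the knockdown, against 55.0, 56.7 and 52.3 CPM in the controls. The groups overlapped and the log2 fold change of 0.05 (SE 0.0501) did not pass (edgeR adjusted p = 0.355; range over the alternatives 0.207 to 0.660).

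Among the branching enzymes outside the 10, MGAT4B fell most. MGAT4B makes the same branch as MGAT4A and was far more abundant here (chromosome 5, 179797597 to 179806866). It had 33.9, 31.9 and 31.4 RPKM in the knockdown libraries, against 82.8, 83.3 and 103 RPKM in the controls, with control replicate 3 the highest. It fell to 0.356 of the control level (log2 fold change −1.49, SE 0.0836, edgeR adjusted p = 5.48e-08). The summed RPKM of MGAT4A and MGAT4B was 32.7 ± 1.34 in the knockdown and 90.0 ± 11.7 in the controls (SD, n = 3 each), and MGAT4A made up 0.908% of it in the knockdown and 0.236% in the controls. The log2 ratio of MGAT4A to MGAT4B was −6.77 ± 0.0970 in the knockdown and −8.75 ± 0.301 in the controls, with p = 0.1 in the exact two-sided permutation test, the smallest possible. MGAT4B overlaps the first part of SQSTM1 on the opposite strand by 555 bases in GENCODE 29. SQSTM1 had 111381 reads in the knockdown libraries and 73182 in the controls. These are raw sums not scaled to library size, and every knockdown library held more reads than any control.

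MGAT3, which adds the bisecting GlcNAc that hinders further branching (chromosome 22, 39457012 to 39492194), had 77, 64 and 70 reads in the knockdown libraries against 14, 12 and 17 reads in the controls. It rose 3.66-fold (log2 fold change 1.87, SE 0.182, edgeR adjusted p = 4.28e-06) at a low level of 0.357 ± 0.0309 RPKM in the knockdown and 0.0949 ± 0.00821 RPKM in the controls. MGAT5B, a relative of MGAT5 best known from the brain, had a log2 fold change of −0.18 (SE 0.0686, edgeR adjusted p = 0.0398), a call lost when any of the 3 knockdown libraries was left out and in 5 of 13 alternatives in all (range 0.00404 to 0.145). MGAT4C had 5 reads in all knockdown libraries and 2 in all controls. MGAT4D had none in any library, which at this depth does not show that it was absent. Neither was tested.

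Across 9 lists of N-glycan and galectin genes outside the 10, 107 of 118 genes were tested, of which 39 rose and 46 fell. That is 79.4% called, beside 67.3% of all genes tested, with a median log2 fold change of −0.09 and a median absolute value of 0.28, below the 0.35 over all genes. At 2-fold or more, 3 rose (MGAT3, B4GALT1 and LGALS8) and 2 fell (MGAT4B and ST6GAL1), against 14.0% of all genes tested at that size, 8.01% higher and 6.01% lower.

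**Figure D4:**
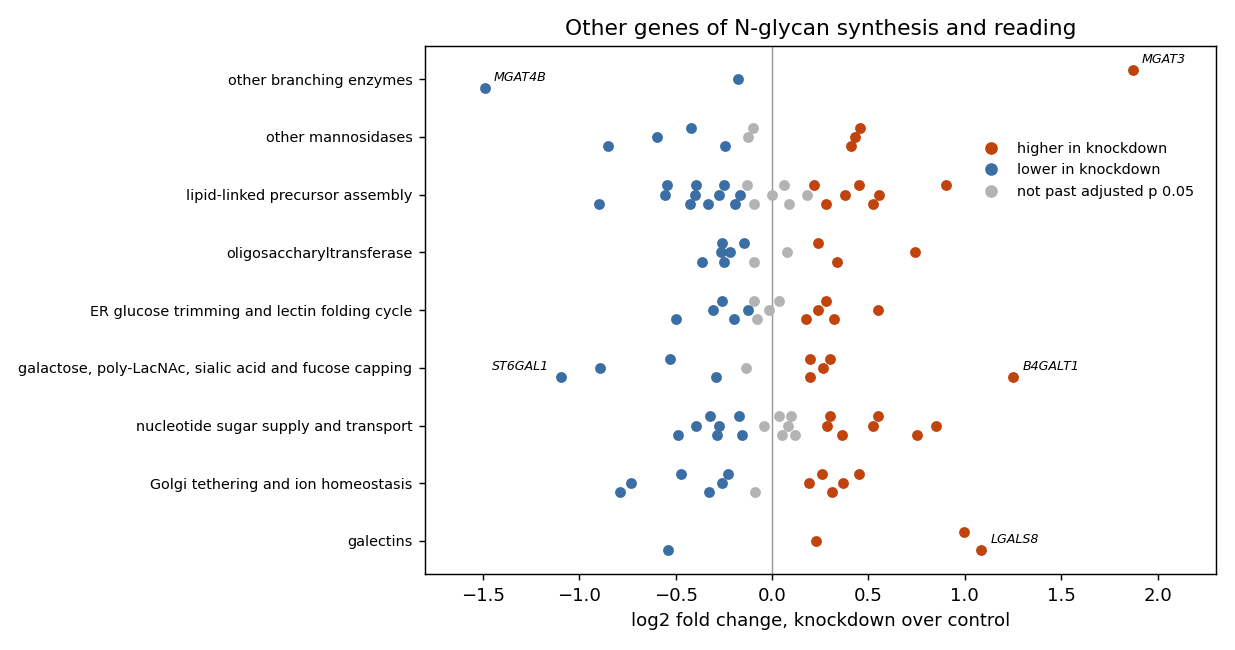
Log2 fold change, knockdown over control, of each tested gene in the 9 lists, with genes past an adjusted p of 0.05 in orange (higher) or blue (lower) and others in grey. Most points lie within 1 log2 unit of 0, and the 5 called genes beyond it are named.

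Genes that build the glycan and attach it to protein all differed by less than 1 log2 unit. Of 24 genes of lipid-linked precursor assembly, 7 rose and 11 fell, among them the dolichol pyrophosphate phosphatase DOLPP1 (log2 fold change 0.90, SE 0.0593), the polyprenol reductase SRD5A3 (−0.90, SE 0.0758) and DHDDS, a subunit of the enzyme that makes the dolichol chain (0.52, SE 0.0480). Of 11 tested subunits of the oligosaccharyltransferase, which transfers the glycan to protein, 3 rose and 6 fell. MAGT1, an oxidoreductase subunit, rose by 0.74 on the log2 scale (SE 0.0527), while DDOST (−0.37, SE 0.0376) and RPN2 (−0.26, SE 0.0377) fell. Its alternative TUSC3 had 5 reads in the knockdown libraries and 1 in the controls.

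Of 14 genes of glucose trimming and the lectin folding cycle in the ER, 5 rose and 5 fell. The folding sensor UGGT1 fell (−0.50, SE 0.0528), and the chaperone lectin CALR (0.28, SE 0.0387) and the cargo receptor subunit MCFD2 (0.55, SE 0.0510) rose. Of 9 other mannosidases and mannosidase-like genes, 3 rose and 4 fell. EDEM1, which promotes degradation of misfolded glycoproteins, rose (0.46, SE 0.0534), and the lysosomal enzyme MAN2B1 (−0.85, SE 0.0714) and MANEAL (−0.60, SE 0.0634) fell.

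Capping and sugar supply moved both ways. Of 10 tested capping genes, 5 rose and 4 fell. B4GALT1, the main galactosyltransferase of N-glycan antennae, rose to 296 ± 3.27 CPM in the knockdown, against 124 ± 3.90 CPM in the controls (log2 fold change 1.25, SE 0.0415, edgeR adjusted p = 1.42e-09). B4GALT2, another galactosyltransferase, fell (−0.89, SE 0.0824), as did the sialyltransferase ST6GAL1 (−1.10, SE 0.136), which was at 2.06 ± 0.236 CPM in the knockdown and 4.35 ± 0.518 CPM in the controls. Of 20 genes of nucleotide sugar supply and transport, 7 rose and 7 fell. GFPT1 (0.52, SE 0.0552), GFPT2 (0.55, SE 0.125) and PGM3 (0.75, SE 0.0625), all on the route to UDP-GlcNAc, the donor of the MGAT enzymes, rose. GNPNAT1 (−0.17, SE 0.0551) and UAP1 (−0.40, SE 0.0527) of the same route fell. GMDS of GDP-fucose synthesis rose (0.85, SE 0.0750). GFPT2, GNPNAT1 and UAP1 were named after their values were seen.

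Of 12 genes of Golgi tethering and ion balance, 5 rose and 6 fell. Those that fell included COG8 (−0.79, SE 0.0651), COG2 (−0.47, SE 0.0564), COG1 (−0.325, SE 0.0516) and COG7 (−0.23, SE 0.0638) of the tethering complex. The manganese and calcium transporter TMEM165 (−0.73, SE 0.0502) also fell. Those that rose included COG3 (0.37, SE 0.0846), COG4 (0.26, SE 0.0461), COG5 (0.19, SE 0.0533) and COG6 (0.45, SE 0.0651) of the tethering complex. COG1, COG7 and the COG genes that rose were named after their values were seen. Of the 4 galectins tested of 9, LGALS8 (1.09, SE 0.0452), LGALS4 (1.0, SE 0.195) and LGALS3 (0.23, SE 0.0384) rose and LGALS1 fell (−0.54, SE 0.0685). LGALS8 averaged 527 ± 11.6 CPM in the knockdown and 248 ± 11.5 CPM in the controls, and LGALS1 averaged 433 ± 25.9 CPM in the knockdown and 628 ± 61.9 CPM in the controls (SD, n = 3 each).

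Near MAN1A1 on chromosome 6, 25 other annotated genes lie within 1 Mb on either side, and 4 of them were tested. FAM184A, the closest tested gene at 28.1 kb, had a log2 fold change of 1.55 (SE 0.101, edgeR adjusted p = 1.81e-07), at 9.47 CPM in the knockdown and 3.25 CPM in the controls. ASF1A, a histone chaperone, stood at 0.15 (SE 0.0613, edgeR adjusted p = 0.0448), MCM9, a helicase of DNA repair, at −0.57 (SE 0.0707, edgeR adjusted p = 2.95e-05) and CEP85L, a centrosomal protein gene that did not pass, at 0.15 (SE 0.0883, edgeR adjusted p = 0.144). The neighbours thus differed in direction. ASF1A lies within the span of MCM9. GENCODE 29 also has a noncoding gene that spans FAM184A and covers 5537 bases at the far end of MAN1A1, antisense to MAN1A1, and antisense genes overlap MAN1C1 and MAN2A2. Reads of such pairs cannot be told apart without strand.

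The 5 genes whose profile over the 6 libraries was closest to that of MAN1A1 were sought among 12597 genes, those with an average log2 CPM of at least 1 in edgeR. The measure was the root mean square difference of log2 CPM relative to the control mean, with 0.1 CPM added before the log. It largely ranks genes by how near their rise was to that of MAN1A1, the value that chose it, and supports nothing further. The 5 were RASL12, a RAS-like GTPase gene (0.12 log2 units), COL5A3, a collagen chain (0.13), BMF, a pro-apoptotic BCL2 family gene (0.13), INSR, the insulin receptor (0.15), and TNS4, a focal adhesion protein gene (0.15). Their log2 fold changes ran from 3.65 for BMF to 4.21 for RASL12. In the controls RASL12, COL5A3 and TNS4 averaged only 0.363, 0.196 and 0.339 CPM, levels at which the added 0.1 CPM shrinks the log2 difference. Like MAN1C1, these 3 genes would not have passed the low-count filter on their controls alone. INSR averaged 23.9 ± 1.04 CPM in the knockdown and 1.82 ± 0.118 CPM in the controls (SD, n = 3 each).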

How the data were processed

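Per the submitters' processing notes, GSNAP aligned the reads to GRCh38. Per the file headers, each deposited file gives for every gene model the count of uniquely aligned reads and the authors' size-factor-adjusted RPKM. The GSNAP version, annotation, strand setting and size-factor method were not given in the sources used here. Deposited counts were tested with edgeR 4.0.16 in R 4.3.3 (filterByExpr, minimum count 10 and minimum total 15, TMM, glmQLFit and glmQLFTest, two-sided, Benjamini-Hochberg over 15190 genes). Standard errors of log2 fold changes were derived from the F statistic. RPKM were used to compare levels between genes and for ratios, tested by an exact permutation test.

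Symbols and coordinates came from RefSeq (GRCh38.p14) for 27814 of 30727 IDs and from GENCODE 29 for 20. IDs with no symbol, 0.267% to 0.290% of reads, stayed in the tests. Replicate numbers are names only, and no 2 libraries were identical. The code was checked on simulated counts that gave every gene the same dispersion and changed few genes. Those counts differ from these data, so that run does not test the p-values given here.

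The members and lists were chosen with earlier results of these data known. Named genes were the 10 members, KMT5C, the partner in each ratio, the 3 listed genes of smallest p per list with no overlap between groups, tested genes within 1 Mb of MAN1A1 and the 5 nearest profiles (with 0.1 CPM added before the log, among genes whose average log2 CPM in edgeR, the log of a mean over libraries, is at least 1). In lists of under 10 tested genes any member could be named. RefSeq upstream windows were found for 8 of the 10 genes. Alternatives were DESeq2 1.42.0 size factors or Wald test, library totals, limma-voom (limma 3.58.1), no filter, a minimum mean log2 CPM of 1, thinning to 20863594 reads, and leaving out each library.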

Additional observations from a re-analysis of the deposited data

How the results depend on the processing

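Over 13 alternatives, the genes called across the transcriptome ranged from 4372 to 5612 higher and 4530 to 5665 lower, the 9 genes other than MAN1A1 from 3 to 4 higher and 2 to 3 lower, and the pathway lists from 37 to 39 higher and 41 to 52 lower. Leaving out single libraries gave 4533 to 5612 higher and 4651 to 5665 lower overall. The log2 fold change of MAN1A1 stayed between 3.81 and 3.89, that of MAN1C1 between 2.40 and 3.16 (not tested with a minimum mean log2 CPM of 1), that of MGAT2 between −0.58 and −0.54 and that of MGAT4B between −1.54 and −1.37. The calls that changed among the 10 were those of MAN1A2, MAN2A1, MGAT1 and MGAT4A, as given with each gene, and the cause was not tested. The difference in the log2 ratio of MAN2A1 to MAN2A2 ranged from 0.39 to 0.50, and that of MGAT4A to MGAT4B from 1.84 to 2.13. The median log2 fold change of all genes moved by less than 0.1 under every scaling. No paired analysis was possible because the labels give no replicate numbers. At this depth MAN1C1 (9 control reads) and MGAT4A (130 control reads) are the least precise members.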
